A study of Mus musculus with 9 samples.

Results

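The MHC class II antigen presentation genes H2-Aa, H2-Ab1, H2-Eb1, Cd74, Ciita, H2-DMa and H2-DMb1 were examined in bulk RNA sequencing of mouse tumour tissue that the labels call MB. They were taken by gene symbol, and all 7 were found among the 17482 genes of the expression table. Tissue was collected at postnatal day 8 or 9, and 9 libraries fell into 3 groups of 3. YSGr and YSGnr libraries came from fYap1;fSMO-M2;hGFAPcre mice, marked as rescued and non-rescued, and SG libraries from fSMO-M2;hGFAPcre mice. All groups therefore shared the SMO-M2 allele, which encodes an activated Smoothened that switches on Hedgehog signalling, and a Cre driven by the human GFAP promoter, which is active in neural progenitors and glia. By the title of the series, the work asked how Yap1 differs between the sexes in immune evasion. The labels do not define rescue and give no sex or strain. They do not say whether libraries came from separate animals, so the spread behind each p-value is one between libraries and may be technical.

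MHC class II molecules are pairs of an alpha and a beta chain that display peptides from the endosome to CD4 T cells. In mouse, H2-Aa and H2-Ab1 encode the chains of one such pair and H2-Eb1 the beta chain of another. Cd74, the invariant chain, escorts new pairs to the endosome, where H2-DM, a dimer encoded by H2-DMa and H2-DMb1, loads the peptide. Ciita encodes the coactivator that switches on the whole set, and it acts through factors already bound at a conserved promoter module. In brain tissue these genes are known from macrophages at the borders, dendritic cells, B cells and activated microglia, while resting microglia hold little of them.

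All 7 genes were at the low end of the table. Their mean level ranked between the 5.10th percentile (H2-DMb1) and the 21.4th percentile (H2-DMa) of all genes. The deposited values were log2 CPM (reads per gene scaled to the size of the library) with a small count added by the authors' scaling, so the lowest value possible was -3.52 and folds of low genes are understated. Reads were calculated back from these values. The libraries held 17.3 to 29.2 M (mega) reads, apart from YSGnr replicate 1 with 9.66 M and an effective size of only 3.92 M. CPM is scaled to the effective size, which was 18.1 to 32.3 M in the other libraries, near their reads. The CPM values of YSGnr replicate 1 are therefore high for its reads, unlike those of the other libraries. Of the 63 values, 7 genes in 9 libraries, 24 rested on 10 reads or fewer, among them all 7 of YSGnr replicate 1. Only H2-Ab1, Cd74 and H2-DMa had a log2 CPM above 0 in at least 3 libraries and entered the main test. H2-Ab1 and Cd74 entered in part through the libraries where they were high. The other 4 genes, H2-Aa, H2-Eb1, Ciita and H2-DMb1, were tested in a fit with no filter.

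The promoters of H2-Aa, H2-Eb1 and H2-DMb1 are shown because they carry letters of the module through which Ciita acts. These genes did not move together across the libraries, in part through the shallow YSGnr replicate 1. A link between their levels and the letters was not tested. Each sequence is the 150 bases before the gene's start in RefSeq on GRCm38.p6, on the gene's strand. Capitals mark matches to the Y box (TGATTGG, bound by NF-Y), the X box (AACNGATG, bound by RFX) and the palindrome TGACGTCA of the X2 box (bound by CREB). The letters were picked after these windows had been read, and all were searched on both strands.
H2-Aa, chr17:34287824-34287973, minus strand: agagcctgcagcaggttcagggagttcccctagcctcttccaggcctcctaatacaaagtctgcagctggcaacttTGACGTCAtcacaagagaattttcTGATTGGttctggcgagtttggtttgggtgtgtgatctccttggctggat
H2-Eb1, chr17:34305717-34305866, plus strand: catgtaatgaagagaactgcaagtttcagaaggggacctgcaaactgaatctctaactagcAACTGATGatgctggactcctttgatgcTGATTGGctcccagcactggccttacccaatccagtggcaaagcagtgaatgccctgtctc
H2-DMb1, chr17:34153041-34153190, plus strand: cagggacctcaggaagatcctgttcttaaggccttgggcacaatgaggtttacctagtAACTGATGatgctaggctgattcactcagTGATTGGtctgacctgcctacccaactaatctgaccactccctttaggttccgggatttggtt
Counted back from the start, the Y box began at base -50 in H2-Aa, -61 in H2-Eb1 and -63 in H2-DMb1. The X box began at -89 in H2-Eb1 and -92 in H2-DMb1, and the palindrome at -74 in H2-Aa. The same table holds 32851 promoter windows, which run from 250 bases before the start to 50 after it. Only the 150 bases before the start were counted. Within them, 5.71% of the windows held the Y box, 1.14% the X box and 1.36% the palindrome. An X box followed by a Y box within 40 bases on the gene's strand was found in these 150 bases in 6 windows (0.0183%). Those belonged to H2-DMb2, H2-DMb1, H2-Eb1, H2-Eb2, BC051142 and Gm35444. Neither of the windows of H2-DMa held these letters. Windows were matched for 4 of the 7 genes. A match describes letters and is not a measured binding site.

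H2-Aa (ENSMUSG00000036594.15, chromosome 17, 34282744 to 34287823, minus strand, GRCm38) encodes the alpha chain of the A molecule. It stood at -0.44, -1.01 and -0.81 log2 CPM in YSGr replicates 1 to 3, at -0.23, -0.77 and 0.61 in YSGnr, and at -1.98, -1.89 and -1.87 in SG. The SG libraries were the 3 lowest, and the YSGr and YSGnr libraries overlapped. These levels rested on 19, 11 and 11 reads in YSGr, on 3, 12 and 30 in YSGnr and on 3, 5 and 6 in SG. H2-Ab1 (ENSMUSG00000073421.6, chromosome 17, 34257689 to 34269419, plus strand) encodes the partner beta chain. It stood at -0.26, 2.03 and -0.12 log2 CPM in YSGr, at 0.15, -0.88 and 0.51 in YSGnr, and at -0.22, -0.43 and -0.44 in SG. One library, YSGr replicate 2 with 107 reads, stood apart, while the other 8 lay between -0.88 and 0.51. In that library H2-Aa was at -1.01, the lowest of the YSGr values, whereas in YSGnr replicate 3 H2-Aa had its highest value (0.61) and H2-Ab1 its highest after YSGr replicate 2 (0.51). H2-Eb1 (ENSMUSG00000060586.11, chromosome 17, 34305867 to 34316674, plus strand), the beta chain of the E molecule, stood at -0.38, -1.38 and -0.51 log2 CPM in YSGr. Its levels were 0.45, -1.41 and -0.95 in YSGnr and -1.08, -1.55 and -0.94 in SG. The 3 groups overlapped, and the highest value, in YSGnr replicate 1, came from 5 reads.

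**Figure D1:**
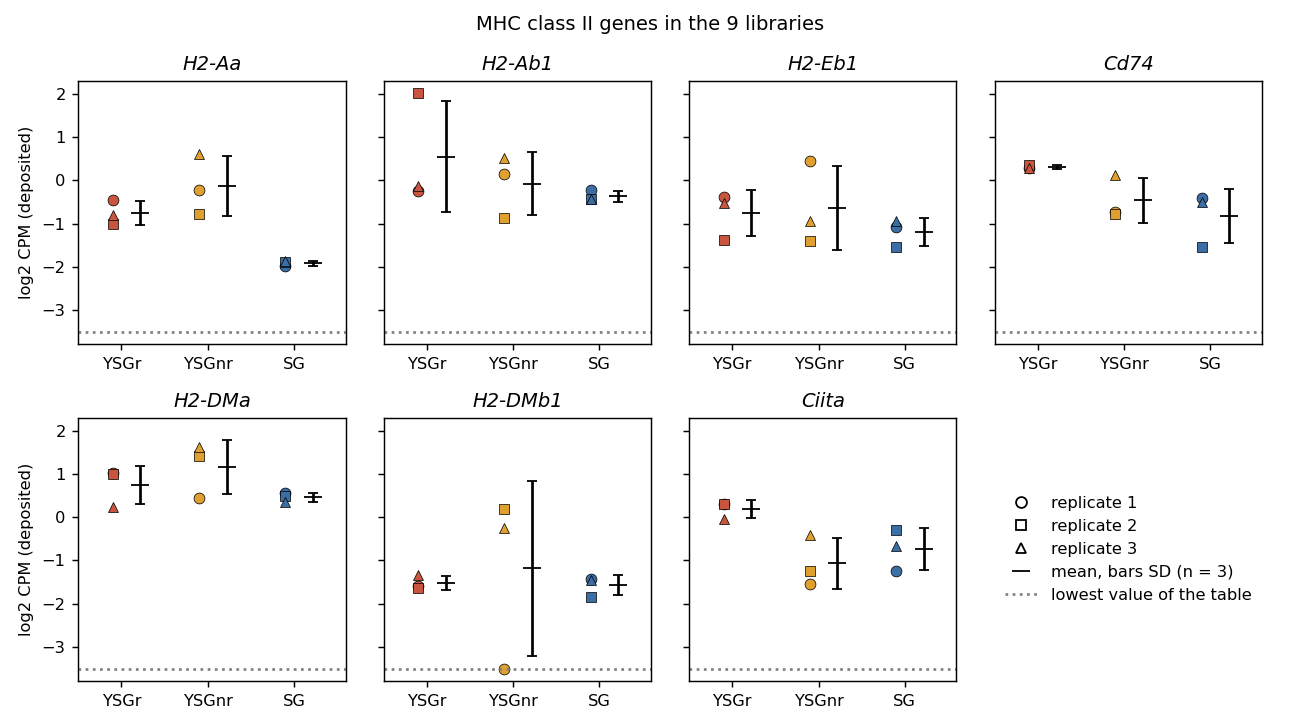
Deposited log2 CPM (y axis) of each of the 7 MHC class II genes in the YSGr, YSGnr and SG libraries (x axis); symbols are replicates and bars the mean ± SD (n = 3 each). H2-Aa is lowest in the 3 SG libraries, Cd74 and Ciita are highest in the 3 YSGr libraries, and H2-Ab1 reaches 2.03 in 1 YSGr library.

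Cd74 (ENSMUSG00000024610.15, chromosome 18, 60803848 to 60812652, plus strand), the invariant chain, was the most even of the genes within YSGr. It stood at 0.28, 0.35 and 0.30 log2 CPM there, at -0.74, -0.77 and 0.13 in YSGnr, and at -0.41, -1.55 and -0.50 in SG. Each YSGr library was above each library of the other groups, and YSGnr and SG overlapped. The YSGr values came from 33, 32 and 26 reads, the YSGnr values from 2, 12 and 21 and the SG values from 12, 7 and 20. H2-DMa (ENSMUSG00000037649.10, chromosome 17, 34119541 to 34139101, plus strand) encodes the alpha chain of the peptide loader. It stood at 1.02, 0.99 and 0.24 log2 CPM in YSGr, at 0.45, 1.41 and 1.63 in YSGnr, and at 0.56, 0.48 and 0.34 in SG. YSGnr replicates 2 and 3 were the highest, with 62 and 63.0 reads, and replicate 1, with 5 reads, lay within the SG values. H2-DMb1 (ENSMUSG00000079547.4, chromosome 17, 34153072 to 34160230, plus strand), the beta chain of the loader, was nearly equal in YSGr and SG. It stood at -1.60, -1.65 and -1.33 log2 CPM in YSGr, at -3.52, 0.20 and -0.24 in YSGnr, and at -1.42, -1.84 and -1.47 in SG. YSGnr thus held both its lowest and its highest libraries. Replicate 1 had 0 reads, which allows a level of up to 0.766 CPM (3 reads, counting error only), a limit above the level of the YSGr and SG groups. Reads of H2-DMb1 are uncertain because its transcript is 95.8% identical to that of H2-DMb2, a second beta chain gene, over 1080 aligned bases. H2-DMb2 stood at 0.90, 0.83 and 1.94 log2 CPM in YSGr, at 3.05, 1.19 and 1.93 in YSGnr and at 1.73, 0.79 and 1.27 in SG.

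Ciita (ENSMUSG00000022504.10, chromosome 16, 10480059 to 10528418, plus strand), the coactivator of the set, stood at 0.30, 0.31 and -0.05 log2 CPM in YSGr. Its levels were -1.54, -1.26 and -0.42 in YSGnr and -1.25, -0.30 and -0.66 in SG. The YSGr libraries were the 3 highest, and YSGnr and SG overlapped. The YSGnr replicate 1 value came from 1 read. Ciita and Cd74 were thus highest in YSGr, whereas H2-Aa, H2-Eb1, H2-DMa and H2-DMb1 had their highest library in YSGnr.

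Pooling the reads of the 3 libraries of a group gave each level a counting interval (exact Poisson, 95%), which covers counting error only, since reads copied by PCR are not independent molecules. H2-Aa came to 0.519 CPM (0.372 to 0.704) in YSGr and 0.919 CPM (0.671 to 1.23) in YSGnr, against 0.180 CPM (0.0983 to 0.302) in SG. Cd74 came to 1.15 CPM (0.927 to 1.41) in YSGr and 0.715 CPM (0.498 to 0.995) in YSGnr, against 0.501 CPM (0.356 to 0.684) in SG. For Ciita the pooled levels were 1.07 CPM (0.848 to 1.32) in YSGr and 0.466 CPM (0.298 to 0.705) in YSGnr, against 0.559 CPM (0.410 to 0.758) in SG. Intervals of YSGr and SG were apart for H2-Aa, Cd74 and Ciita, and also for H2-Ab1, where 107 of the 148 YSGr reads came from replicate 2. Per kilobase of the longest coding transcript, H2-Ab1 was the highest in YSGr (1.53 CPM per kb) and H2-DMa in YSGnr (1.14) and SG (0.643). The place of H2-Ab1 rested on YSGr replicate 2, without which it stood at 0.653 CPM per kb in YSGr, against 0.758 for H2-DMa and 0.803 for Cd74. Ciita, with the longest transcript, was the lowest per kilobase in every group, at 0.176 CPM per kb in YSGr, 0.0693 in YSGnr and 0.0889 in SG. H2-Aa changed its place most, standing behind 3 of the other genes in YSGr (0.455 CPM per kb) and 1 in YSGnr (0.798), but behind 5 in SG (0.158). Neighbours in these orders, such as H2-DMa (0.821) and Cd74 (0.817) in YSGr, differed by less than the spread of their libraries.

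**Figure D2:**
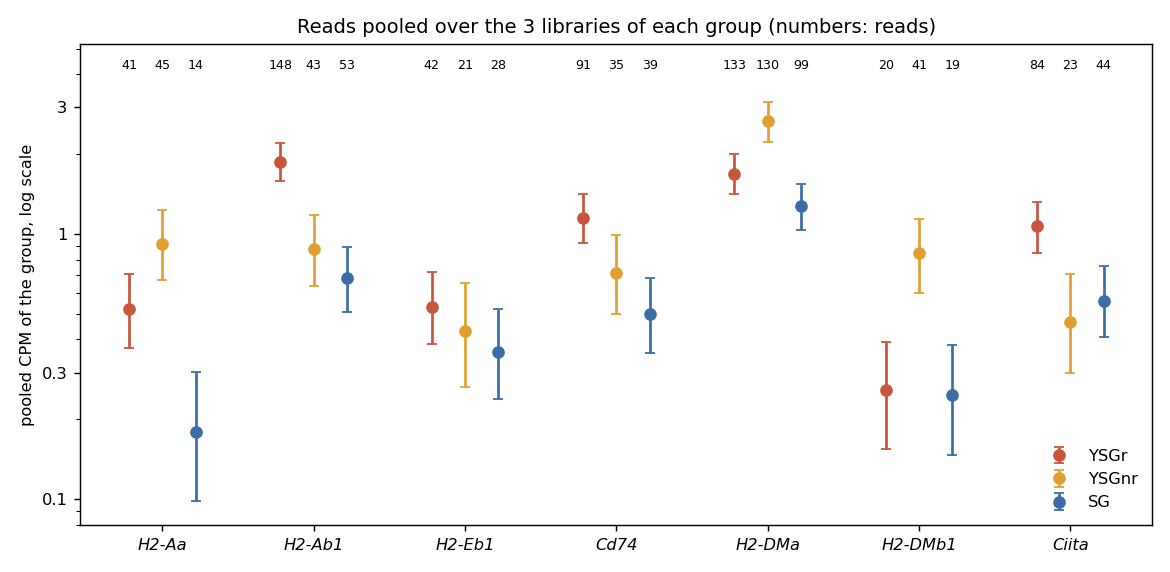
Reads pooled over the 3 libraries of each group, as CPM on a log axis, for the 7 genes; bars are exact 95% Poisson intervals (counting error only), and the numbers along the top are the pooled reads. The SG interval of H2-Aa (0.0983 to 0.302 CPM) lies below those of YSGr and YSGnr, and pooled reads range from 14 to 148.

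YSGr against SG compares rescued tumours carrying the floxed Yap1 allele with tumours lacking it. H2-Aa, Cd74 and Ciita were higher in every YSGr library than in every SG library, yet no member passed the test. Cd74 averaged 0.31 ± 0.04 log2 CPM in YSGr and -0.82 ± 0.63 in SG (SD, n = 3 each), a log2 fold change of 1.13 (SE 0.43, limma adjusted p = 0.132). H2-Aa averaged -0.75 ± 0.29 in YSGr and -1.92 ± 0.06 in SG (log2 fold change 1.16, SE 0.41, limma with no filter, adjusted p = 0.120). Ciita averaged 0.19 ± 0.21 in YSGr and -0.74 ± 0.48 in SG (log2 fold change 0.92, limma with no filter, adjusted p = 0.204). H2-Ab1 averaged 0.55 ± 1.28 in YSGr and -0.36 ± 0.13 in SG, a log2 fold change of 0.91 (SE 0.62, limma adjusted p = 0.404), which came to 0.17 without YSGr replicate 2. H2-DMa (0.29, limma adjusted p = 0.680), H2-Eb1 (0.43) and H2-DMb1 (0.05) differed by less than the spread of their libraries. Limma called 0 of the 3 tested genes and 0 of 7 with no filter, while 10.5% and 8.77% of all genes were called in these fits. At an unadjusted p below 0.05 there were 1 of 3 and 3 of 7, against 26.1% and 24.0% of all genes, and voom called 0. All 7 log2 fold changes were above 0, with a median of 0.91, against -0.02 over all tested genes. Groups without overlap and higher in YSGr were seen for 3 of the 7 genes, against 18.7% of all genes. Leaving out 1 library in turn kept Cd74 between 0.77 (without SG replicate 2) and 1.33.

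YSGnr against SG compares non-rescued tumours with tumours lacking the floxed allele. H2-Aa was higher in each YSGnr library, and H2-Ab1, H2-DMa and H2-DMb1 in 2 of the 3, but no member passed the test with all libraries. H2-Aa averaged -0.13 ± 0.70 log2 CPM in YSGnr and -1.92 ± 0.06 in SG (SD, n = 3 each), the widest difference of the set at a log2 fold change of 1.78 (SE 0.41, limma with no filter, adjusted p = 0.0554). H2-DMa averaged 1.16 ± 0.63 in YSGnr and 0.46 ± 0.11 in SG (log2 fold change 0.71, SE 0.37, limma adjusted p = 0.253). Cd74 (0.36, limma adjusted p = 0.614), H2-Ab1 (0.29, limma adjusted p = 0.785) and H2-Eb1 (0.55) had smaller differences, and Ciita was at -0.33. Limma called 0 of 3 tested genes and 0 of 7 with no filter, where 3.36% and 2.57% of all genes were called. Of these, 0 of 3 and 1 of 7, H2-Aa, had an unadjusted p below 0.05, against 25.6% and 23.7% of all genes, and voom called 0. In this comparison 6 of the 7 log2 fold changes were above 0 (median 0.39, against -0.01 over all tested genes), but single libraries carried several of them. H2-Eb1 came to 0.01 without YSGnr replicate 1, Cd74 to -0.01 without SG replicate 2 and H2-Ab1 to -0.00388 without YSGnr replicate 3. H2-DMb1 came to -0.30 without YSGnr replicate 2 and to -0.08 without YSGnr replicate 3. Further, 1 of 7 genes showed no overlap, against 15.7% of all genes.

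Leaving out YSGnr replicate 1, the shallow library, turned 3 of these differences into calls. H2-DMa then differed by 1.06 (SE 0.30, limma adjusted p = 0.0405), where 21.8% of all genes were called. With no filter H2-Aa differed by 1.83 (limma adjusted p = 0.0292) and H2-DMb1 by 1.56 (limma adjusted p = 0.0223), where 18.2% were called. These calls were not kept once a trend with transcript length and GC content was also taken out of each library. H2-Aa then came to 1.37 (limma adjusted p = 0.0930), H2-DMb1 to 1.12 (limma adjusted p = 0.0713) and H2-DMa to 0.75 (limma adjusted p = 0.190), with 12.4% of all genes called. Length moved with the libraries: over 14630 genes the difference from SG fell with transcript length in YSGnr replicates 2 and 3 (Spearman correlation -0.55 and -0.53) and in YSGr replicate 3 (-0.42). The correlation lay between -0.08 and 0.17 in the other YSGr and YSGnr libraries. Apart from Ciita, with 6007 bases, the transcripts of the 7 genes spanned 1128 to 2005 bases, below the median of 3132 over tested genes. Without YSGr replicate 3, H2-Aa was also called with no filter (1.78, limma adjusted p = 0.0339, 13.7% of all genes called), and with both libraries left out 46.5% of all genes were called.

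YSGr against YSGnr sets the rescued beside the non-rescued tumours of one genotype. Cd74 and Ciita were higher in every YSGr library, H2-Aa, H2-DMa and H2-DMb1 averaged lower there, and no member passed the test. Ciita averaged 0.19 ± 0.21 log2 CPM in YSGr, against -1.07 ± 0.59 in YSGnr (SD, n = 3 each), a log2 fold change of 1.26 (limma with no filter, adjusted p = 0.0886). Cd74 averaged 0.31 ± 0.04 in YSGr and -0.46 ± 0.51 in YSGnr (log2 fold change 0.77, limma adjusted p = 0.225). The log2 fold change was -0.41 for H2-DMa (limma adjusted p = 0.437), -0.62 for H2-Aa, -0.34 for H2-DMb1 and -0.12 for H2-Eb1. H2-Ab1 stood at 0.62 with all libraries and at -0.12 without YSGr replicate 2. Limma called 0 of 3 tested genes and 0 of 7 with no filter, against 5.97% and 3.9% of all genes. An unadjusted p below 0.05 was found for 0 of 3 and for 1 of 7, Ciita, against 33.9% and 31.3% of all genes, and voom called 0. Above 0 were 3 of 7 log2 fold changes, with a median of -0.12, against 0.01 over all tested genes, and 2 of 7 genes were higher in YSGr without overlap, against 14.4% of all genes. Calls again turned on single libraries. Without YSGnr replicate 1 and with no filter, H2-DMb1 differed by -1.51 (limma adjusted p = 0.0252, 25.8% of all genes called), and by -1.10 (limma adjusted p = 0.0525, 23.4% called) with the length and GC trend also removed. Without YSGr replicate 3, Ciita was called at 1.38 (limma with no filter, adjusted p = 0.0483, 37.0% of all genes called). With both left out, Ciita came to 1.14 (limma adjusted p = 0.0489) and H2-DMb1, in the opposite direction, to -1.60 (limma adjusted p = 0.00758), and 58.3% of all genes were called. The comparisons of YSGr and of YSGnr with SG share the SG libraries, so a low SG level, as in H2-Aa, raises both.

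**Figure D3:**
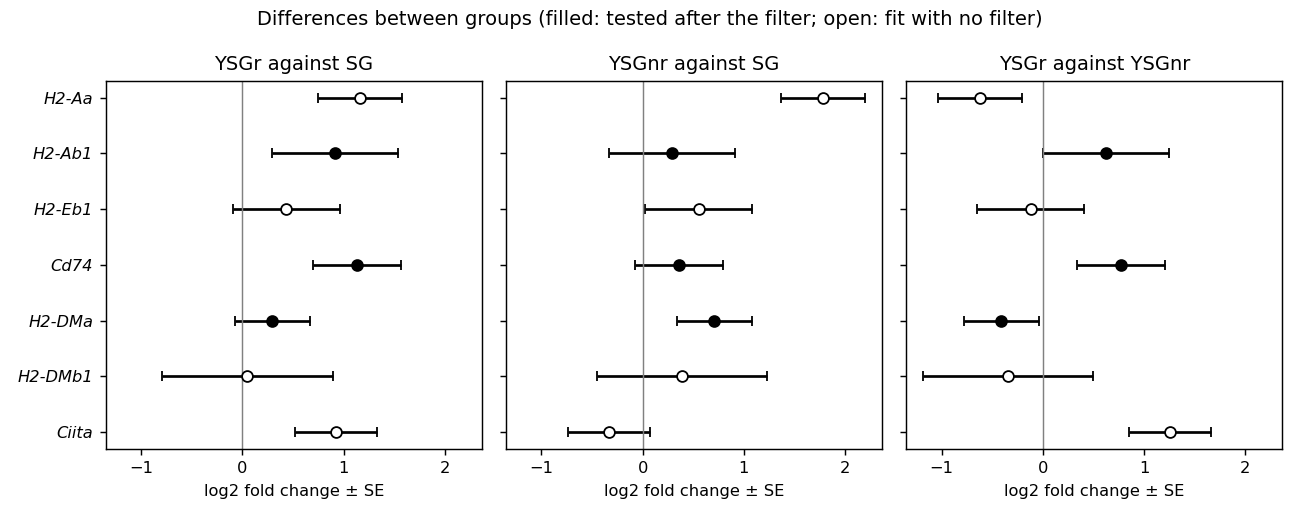
Log2 fold change ± SE (x axis) of the 7 genes (rows) for YSGr against SG, YSGnr against SG and YSGr against YSGnr; filled points come from the filtered limma fit and open points from the fit with no filter. No point passed the adjusted threshold; H2-Aa is at 1.16 and 1.78 against SG, and Ciita at 1.26 for YSGr against YSGnr.

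Sex-linked transcripts were not alike between the groups. Xist, the RNA of the inactive X chromosome, lay between 9.81 and 10.81 log2 CPM in the 3 YSGr libraries and YSGnr replicate 1, and between -1.38 and -0.25 in YSGnr replicates 2 and 3 and the SG libraries. Ddx3y, a Y-linked helicase gene, was at -3.52 in the Xist-high libraries and between 4.97 and 5.99 in the others. The group and this split cannot be told apart for YSGr against SG. Nor can they for YSGr against YSGnr once YSGnr replicate 1 is left out. The calls of H2-DMb1 and Ciita that were made without that library share this limit. Among the Xist-low libraries, YSGnr replicates 2 and 3 against SG gave the values without YSGnr replicate 1 above. Among the Xist-high libraries the YSGr values can be set beside only 1 YSGnr library, with 0 to 5 reads per gene. All 3 YSGr values were above that library for Cd74 and Ciita, which rested there on 2 reads and 1 read. All 3 were below it for H2-Aa and H2-Eb1, and 2 of 3 for H2-Ab1. Yap1, the floxed gene, stood at 4.44, 3.31 and 2.79 log2 CPM in YSGr, at 2.79, 2.57 and 1.99 in YSGnr and at 5.04, 5.11 and 5.03 in SG.

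As 1 quantity, the summed level of the 7 genes was 6.53, 9.17 and 5.35 CPM in YSGr, 5.11, 5.70 and 8.65 CPM in YSGnr, and 3.99, 3.57 and 3.89 CPM in SG. The 3 SG libraries were the lowest and lay close together. The mean was 7.02 ± 1.95 CPM for YSGr, 6.48 ± 1.90 CPM for YSGnr and 3.81 ± 0.22 CPM for SG (SD, n = 3 each). The sum in YSGnr replicate 1 rested on 20.0 reads. H2-Ab1 made up 43.5% of the sum in YSGr replicate 2 and between 7.99% and 20.0% in the other libraries. Without H2-Ab1 the sums were 5.78, 5.18 and 4.52 CPM in YSGr and 4.08, 5.25 and 7.31 CPM in YSGnr, against 3.22, 2.91 and 3.24 CPM in SG. The SG libraries remained the 3 lowest without that gene. In bulk tissue, fewer cells of a type and less RNA per cell cannot be told apart.

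The summed level of 8 genes listed as pan-leukocyte markers, among them Ptprc, Csf1r and Tyrobp, was 105 to 125 CPM in YSGr and 65.9 to 169 CPM in YSGnr, against 110 to 121 CPM in SG. Most of these genes, such as Csf1r and Tyrobp, are genes of myeloid cells. Csf1r averaged 52.9 CPM in YSGr, 56.2 in YSGnr and 51.5 in SG, and Ptprc 2.12, 1.94 and 2.49. The sum was thus mainly one of myeloid genes and says little of B or T cells. Relative to it, the 7 class II genes came to 5.21%, 8.70% and 4.44% in YSGr, 7.75%, 3.61% and 5.12% in YSGnr, and 3.29%, 3.23% and 3.40% in SG. The SG libraries were again the lowest. Between YSGr and SG the leukocyte sums overlapped and the class II sums did not, while in YSGnr the leukocyte markers themselves varied most.

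**Figure D4:**
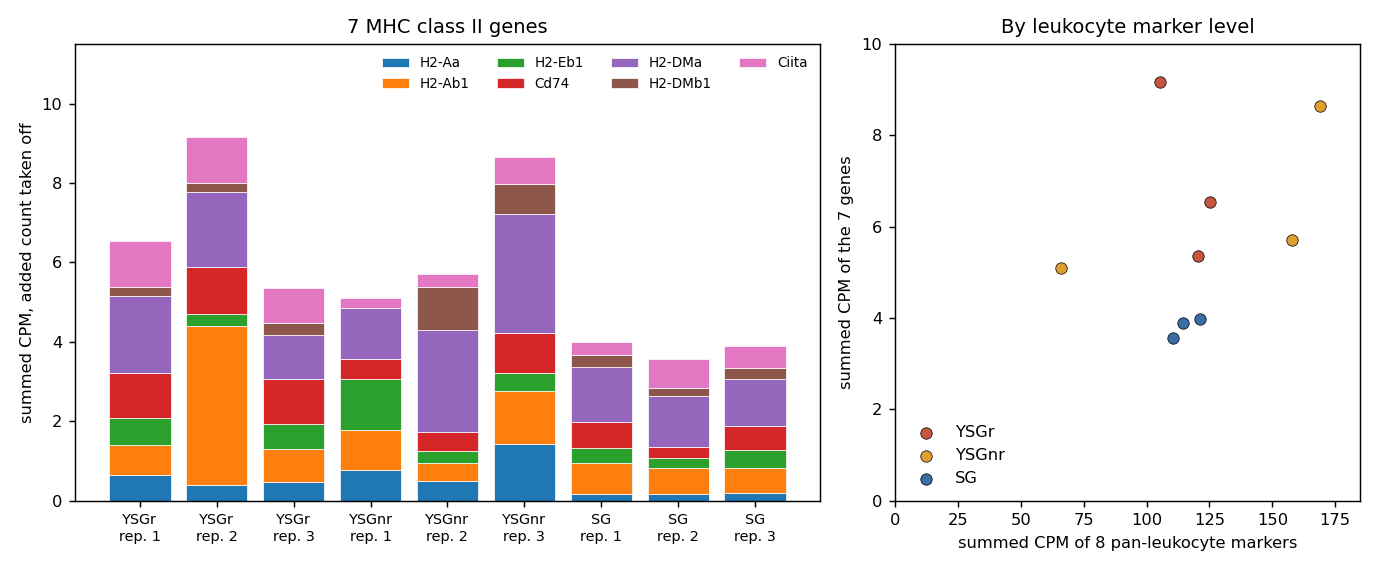
Left, summed CPM of the 7 genes (y axis, added count taken off) in each library, stacked by gene. Right, the same sums against the summed CPM of 8 genes listed as pan-leukocyte markers, most of them myeloid (x axis), 1 point per library. The 3 SG sums (3.57 to 3.99 CPM) are the lowest, and YSGr and YSGnr reach 9.17 and 8.65 CPM.

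Across the 9 libraries the members did not rise and fall as 1 block. Pearson's r between members was highest for H2-DMa and H2-DMb1, the chains of the peptide loader, at 0.66, and was 0.72 after each group's mean was taken off. It was 0.63 for H2-Aa and H2-DMa, 0.56 for Cd74 and Ciita, and lowest for H2-Eb1 and H2-DMb1 at -0.64. Several of these values rested on YSGnr replicate 1. Without it r was 0.73 for H2-DMa and H2-DMb1, 0.77 for H2-Aa and H2-DMa, now the highest pair, and -0.14 for H2-Eb1 and H2-DMb1. For H2-Eb1 and Cd74 r was 0.66 without it, against 0.21 with it, and the lowest pair became Ciita and H2-DMb1 at -0.52. These values are descriptions over shared libraries of unequal depth. The genes most like the mean standardized level of the 3 filtered members, among 13568 ranked, were Lcat (r = 0.95), Susd5 (0.93), Dtx3 (0.93), Mgll (0.92) and Pnmal1 (0.92). The highest r picked from so many genes over 9 libraries runs high in any case, and the likeness was not tested. Those 3 members were only loosely alike themselves, with r of 0.19 to 0.54.

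The other class II pathway genes that had values were more highly expressed, and 1 of them was called. Of 16 other pathway symbols listed, some of them aliases of one gene, 7 had values and all 7 were tested. Ifi30, a thiol reductase that opens disulphide bonds of endosomal antigens, stood at 3.08, 3.06 and 2.66 log2 CPM in YSGr, at 2.45, 2.78 and 2.80 in YSGnr and at 2.24, 2.28 and 2.18 in SG. All YSGr and YSGnr libraries were above the SG libraries. Ifi30 rose in YSGr against SG (log2 fold change 0.70, SE 0.19, limma adjusted p = 0.0477), and the call was lost with no filter (adjusted p = 0.0570), with the length and GC trend removed (0.0832), with median or quantile scaling (0.0560 and 0.0577), and without any 1 SG library or YSGr replicate 1 or 2 (0.135 to 0.180). It was also lost without YSGnr replicate 2 or 3 (0.0643 and 0.0625). The other 6, H2-DMb2 and the cathepsin and legumain genes Ctss, Ctsl, Ctsb, Ctsd and Lgmn, were not called in any comparison. The endosomal protease gene Ctsd had log2 CPM values of 8.09, 7.93 and 8.82 in YSGr and 8.45, 9.32 and 9.71 in YSGnr, against 8.41, 8.45 and 8.31 in SG. The median log2 fold change of the 7 genes was 0.11 for YSGr over SG, 0.45 for YSGnr over SG and -0.32 for YSGr against YSGnr.

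None of 11 tested transcription factor genes of the class II promoter module was called by limma in any comparison. Rfx5, a subunit of the X box factor, averaged highest in YSGr, at 5.15, 5.32 and 5.05 log2 CPM, with 5.12, 4.89 and 4.84 in YSGnr and 4.44, 4.87 and 4.66 in SG. Its log2 fold change was 0.51 for YSGr against SG (SE 0.16, limma adjusted p = 0.0659), and it was picked after the values were seen. Other factors went the other way: Nfya, of the Y box factor, was at -0.45 in YSGr and -0.59 in YSGnr, each against SG, and Creb1, a CREB gene, at -0.27 and -0.59. Neither was called (limma adjusted p = 0.0889 to 0.508), and their YSGnr libraries were all below the SG libraries. The interferon gamma pathway list holds genes of the signal that leads to Ciita and also targets of that signal. Of its 11 genes 9 had values, 8 were tested and 1 was called. The gene of interferon gamma itself had no values. Jak2, a kinase of the receptor, was lower by log2 fold change -0.69 in YSGr than in SG (SE 0.14, limma adjusted p = 0.0191), at 5.08, 5.03 and 4.91 log2 CPM in YSGr and 5.75, 5.63 and 5.71 in SG. The Jak2 call was lost without any 1 SG library or YSGr replicate 1 or 2 (limma adjusted p = 0.0644 to 0.0927). Of the co-stimulation and CD4 T cell list 4 of 9 genes had values and none was called. Apart from Cd4, the T cell genes of that list had no values, so T cells were not measured by another marker. Cd4, the coreceptor for class II, stood at -0.26, -1.24 and 0.58 log2 CPM in YSGr, at -0.74, 1.80 and 2.18 in YSGnr and at -0.52, 0.44 and 0.07 in SG. It was highest in YSGnr replicates 2 and 3, where H2-DMa was highest too, and a relation between them was not tested.

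Markers of the cell types that can carry class II molecules were read beside these levels, and their part in the class II values was not tested. Of 9 tested microglia markers none was called by limma, and their median log2 fold change was -0.14 in YSGr and -0.31 in YSGnr, each against SG. Border-associated macrophage markers (7 of 8 tested, none called) summed to 21.7 to 29.4 CPM in YSGr and 10.2 to 26.1 CPM in YSGnr, against 12.7 to 17.0 CPM in SG. Their sums in YSGr and SG did not overlap, which was not tested. Singly, Cd163, Lyve1, F13a1, Cbr2 and Folr2 were higher in YSGr without overlap, as were 18.7% of all genes. Mrc1, Pf4 and Ms4a7 overlapped, and Ms4a7 averaged lower in YSGr (log2 fold change -0.51). Mrc1, the mannose receptor of those macrophages, had log2 CPM values of 3.84, 3.74 and 2.90 in YSGr, 2.23, 2.82 and 3.40 in YSGnr and 2.98, 2.58 and 3.06 in SG. Of the dendritic cell list 4 of the 6 genes with values were tested, and Batf3 was at 0 reads in YSGnr replicate 1. Flt3, the receptor of a dendritic cell growth factor, rose in YSGr against SG (log2 fold change 0.83, limma adjusted p = 0.0358) and against YSGnr (0.94, limma adjusted p = 0.0403). Zbtb46, a transcription factor gene, rose in YSGr against SG (1.48, limma adjusted p = 0.0226). The other genes of the list did not share one direction in YSGr against SG: Itgax was at 0.75 and not called, Xcr1 at -0.21 and not called, and the untested Clec9a and Batf3 at -0.28 and -0.21. The log2 CPM of Zbtb46 was 6.37, 6.33 and 5.18 in YSGr, 5.45, 4.66 and 4.80 in YSGnr and 4.34, 4.55 and 4.55 in SG. Zbtb46 thus made up most of the list's sum of 51.4 to 101 CPM in YSGr, 37.6 to 54.0 CPM in YSGnr and 32.0 to 35.3 CPM in SG. It averaged 66.5 CPM in YSGr, against 10.2 for Flt3, 4.67 for Itgax and 1.59 for Xcr1. The sum therefore says little of the other genes of the list or of dendritic cells. Which cells held the Zbtb46 transcripts was not tested. The calls of Flt3 and Zbtb46 against SG were lost without any 1 SG library or YSGr replicate 1 or 2 (limma adjusted p = 0.0743 to 0.152). The call of Flt3 against YSGnr was lost with these groups' 6 libraries alone (limma adjusted p = 0.161) and without any 1 library other than YSGr replicate 3 or YSGnr replicate 1 (0.0774 to 0.184).

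B cell markers were near the bottom of the table, at 1.74 to 2.31 CPM in YSGr and 1.96 to 2.88 CPM in YSGnr, against 0.821 to 1.61 CPM in SG, summed over 4 genes, so that the SG sums did not overlap with either. Of these Pax5, a B cell transcription factor gene, was at 0 reads in SG replicate 1, and Cd22 was the one tested and was not called. Singly, only Cd22 was higher without overlap in YSGr than in SG, and only Pax5 in YSGnr than in SG. Of all genes, 18.7% and 15.7% were likewise higher. Cd79a was nearly equal in YSGr and SG (log2 fold change 0.0067). Of the 8 genes listed as pan-leukocyte markers only Laptm5, a lysosomal membrane protein gene, was called, and the other 7 were not. Laptm5 fell by 0.76 log2 units in YSGnr against SG (limma adjusted p = 0.0426) and was higher in YSGr than in YSGnr (0.79, limma adjusted p = 0.0369). Both calls of Laptm5 were lost without any 1 library other than YSGr replicate 3 or YSGnr replicate 1 (limma adjusted p = 0.0549 to 0.190). Monocyte markers had no values in the table used here. As a check of the labelled tissue, 8 of 8 granule neuron lineage markers had values, and their summed level was 2308 to 3233 CPM in YSGr and 2278 to 2470 CPM in YSGnr, against 2187 to 2403 CPM in SG. Of these, Gabra6 and Cbln3, genes of maturing granule neurons, were called higher in YSGr than in SG (log2 fold changes 3.06 and 3.32), in YSGnr than in SG (1.47 and 1.69) and in YSGr than in YSGnr (1.59 and 1.63). Their calls for YSGr against YSGnr were lost with those 6 libraries alone (limma adjusted p = 0.154 each), and that of Gabra6 for YSGnr over SG was lost without any 1 SG library or YSGnr replicate 3 (0.0837 to 0.136). The calls for YSGr against YSGnr were lost as well without YSGr replicate 1 or 2 or YSGnr replicate 2 or 3 (0.0682 to 0.144), and for Gabra6 without any 1 SG library (0.0630 to 0.0650). The other 6 markers of the list were not called in any comparison. In YSGr against SG, Atoh1 (log2 fold change -1.56) and Barhl1 (-0.77) averaged lower and the rest averaged higher. The summed level hides this split within the list.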

How the data were processed

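RNA from tumour tissue was isolated by a Trizol-type protocol and sequenced on the DNBseq platform, per the labels' protocols. The authors deposited 1 table of log2 CPM. The submitters' processing notes name Trimmomatic, RSEM, Bowtie2, Picard, edgeR and the build mm10, whereas the sources used here give no versions, annotation or strand setting. Reads were calculated back from the log2 CPM; 60.3% to 69.6% of the values in a library were whole to within 0.02 reads, so no count test was used as the main test.

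Groups followed the sample titles. Limma 3.58.1 (R 4.3.3) fitted group means over all 9 libraries with a trend of variance on level, and its moderated test was two-sided. Genes with log2 CPM above 0 in at least 3 libraries entered (15251), and a Benjamini-Hochberg adjusted p below 0.05 was a call. A fit with no filter covered all 17482 genes. The steps were tested on simulated data. The text names all 7 members, Yap1, Xist, Ddx3y, each list's called genes or, where none was called, up to 2 of its highest expressed genes, and the 5 most alike genes. H2-DMb2, Rfx5, Nfya, Creb1, Itgax, Xcr1, Clec9a, Batf3, Pax5, Cd4, Mrc1, Cd22 and Ctsd and the genes in the closing section were chosen after their values were seen. So were Atoh1, Barhl1, Cd79a, Ms4a7, Pf4, Cd163, Lyve1, F13a1, Cbr2 and Folr2. The members and lists were chosen with earlier results of these data known. Alternatives were other filters, scalings, weights, the replicate block and each library left out. Voom on the back-calculated reads, the removal of a length and GC trend, and the fits with no filter that also change another choice were added after seeing the data. GENCODE M21 (GRCm38, the same assembly as mm10) gave coordinates and lengths for 95.8% of symbols, and RefSeq on GRCm38.p6 the promoters.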

Additional observations from a re-analysis of the deposited data

How the results depend on the processing

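In the filtered fit, the counts of called members (0 in each comparison) changed under 3 settings. Array weights, whose estimate stopped before its tolerance was met, called 2 in YSGr against SG, Cd74 (0.96, limma adjusted p = 0.0103) and H2-DMa (0.59, limma adjusted p = 0.00720), and 1 in YSGnr against SG, H2-DMa (1.01, limma adjusted p = 0.00587). H2-DMa was also the 1 member called in YSGnr against SG without YSGnr replicate 1, and without YSGr replicate 3 and YSGnr replicate 1 (1.06, limma adjusted p = 0.00376), so leaving out libraries gave 0 to 1 there and 0 in the other comparisons of that fit. With no filter, leaving out libraries also called H2-Aa and H2-DMb1 in YSGnr against SG and Ciita and H2-DMb1 in YSGr against YSGnr. Directions reversed for Cd74 in YSGnr against SG without SG replicate 2 (-0.00633, with 1 library left out in turn -0.00633 to 0.562). H2-Ab1 reversed in YSGnr against SG without YSGnr replicate 3 (-0.00388, with 1 library left out -0.00388 to 0.693), with the length and GC trend removed (-0.00827), and with no filter, that trend removed and YSGnr replicate 1 left out (-0.29). It also reversed in YSGr against YSGnr without YSGr replicate 2 (-0.12, with libraries left out -0.12 to 1.07). Among the genes without a filtered test, signs changed for H2-DMb1 when libraries were left out, with ranges of -0.08 to 0.13 in YSGr against SG, -0.30 to 1.56 in YSGnr against SG and -1.51 to 0.35 in YSGr against YSGnr with 1 left out. H2-Eb1 in YSGr against YSGnr ran from -0.51 to 0.42 with 1 library left out and stood at 0.19 with voom. With no filter, the length and GC trend removed and YSGnr replicate 1 left out, H2-Eb1 came to -0.35 in YSGnr against SG and 0.78 in YSGr against YSGnr, and Ciita to 0.23 in YSGnr against SG. Over all genes the calls were 1608 in YSGr against SG, 512 in YSGnr against SG and 910 in YSGr against YSGnr. Array weights gave 9661, 7316 and 9967. Without YSGr replicate 3 and YSGnr replicate 1 there were 7556, 8074 and 9867. In YSGnr against SG and in YSGr against YSGnr voom gave 852 and 1800, the length and GC correction 790 and 1856, and the 6 libraries alone 1190 and 0 (3368 at an unadjusted p below 0.05). Median scaling gave 316 and no trend 568 in YSGr against YSGnr. Leaving out 1 library gave 328 to 4257, 19 to 3332 and 1 to 6528. The cause was not tested. Samples with the same number did not deviate together (correlations of -0.226 to 0.236), so numbers were not taken as pairs. With the replicate block 1194, 341 and 860 genes were called, and no member. The depth of YSGnr replicate 1 limits every value of that group: no member had more than 5 reads there.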

Other observations

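Other genes of the same chromosome 17 region, which are not class II genes and were chosen after their values were seen, differed between libraries within a group. H2-T10, a nonclassical class I gene, had log2 CPM values of -0.98, 1.76 and -0.74 in YSGr and -1.38, -1.13 and 3.08 in YSGnr, against 2.13, 2.47 and 2.13 in SG. H2-Q2, another class I gene, stood at -2.68, 0.13 and -3.52 in YSGr and at -3.52, -3.52 and 0.26 in YSGnr, against -0.35, -0.27 and -0.03 in SG. Both were highest in YSGr replicate 2 and YSGnr replicate 3 of their groups, which are also the highest H2-Ab1 libraries of those groups. H2-T22, a close class I relative of H2-T10, stood at 4.17, 3.44 and 4.87 in YSGr and at 4.35, 4.96 and 4.51 in YSGnr, against 3.13, 3.20 and 3.27 in SG. Reads may be divided between near-identical class I genes, and the labels give no strain. A relation of these values to H2-Ab1 was not tested.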
